A study of Mus musculus with 16 samples.

Results

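The livers compared here are those of Nrf2-null mice given CDDO-Me and of wild-type mice given only its solvent, 4 libraries against 4 of the 16 RNA-seq libraries in the series. The libraries were taken by their labels, and every gene counted in them was described. All mice were C57BL/6 by the labels. The KO CDDO-Me mice carried the genotype Nrf2-/- and received CDDO-Me at 3 mg/kg dissolved in pure dimethyl sulfoxide (DMSO). The WT DMSO mice were wild type and received DMSO at 1 µL/g. Both were injected intraperitoneally 24 h and again 1 h before a partial hepatectomy, per the treatment protocol, and the liver tissue is labelled day 0, the day of the operation. The design text differs, placing the resection 24 h after dosing. The other groups, given below only as levels, were 4 WT CDDO-Me libraries and 4 KO untreated libraries. The WT CDDO-Me mice received CDDO-Me at 3 mg/kg, injected at the same times. For the KO untreated mice the labels give no drug, no DMSO and no injection. KO untreated is therefore not a vehicle control for KO CDDO-Me. The part of solvent and injection in any difference between these null groups was not tested. Genotype and drug both differed between the groups compared while the vehicle was shared, so a difference between them cannot be told apart into a share of the gene and a share of the drug. No label gives the age, the sex, the deleted part of Nfe2l2 or the origin of the null line.

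NRF2, encoded by Nfe2l2, is a transcription factor held at a low level by KEAP1, which marks it for destruction. Reactive compounds such as the triterpenoid CDDO-Me (bardoxolone methyl) modify KEAP1, so that NRF2 accumulates, pairs with a small MAF protein and binds antioxidant response elements. In liver it is known for driving glutathione transferases, quinone reductase, glutamate-cysteine ligase, enzymes that supply NADPH and export pumps for conjugated toxins.

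Depth and quality of the libraries bear on what follows. Gene counts summed to between 12002317 and 26948425 in WT DMSO and between 21432833 and 33827313 in KO CDDO-Me. Nuclear ribosomal RNA made up 0.173% to 0.634% of the counts in WT DMSO 1 to 3, against 0.00595% in WT DMSO 4 and 0.00108% to 0.00768% in KO CDDO-Me, so WT DMSO 4 alone had a share like that of the other group. Mitochondrial ribosomal RNA was a larger share with the same split. It made up 5.28% to 7.25% in WT DMSO 1 to 3, against 0.772% in WT DMSO 4 and 0.664% to 0.901% in KO CDDO-Me. Transcripts annotated as sense-intronic or as TEC, gene models still awaiting experimental proof, made up 0.681% and 0.880% of counts in WT DMSO 1 and 2 and 0.186% to 0.328% in the other 6 libraries. WT DMSO 4 also stood apart from the other WT DMSO libraries in inflammatory genes, among them Icam1, a leukocyte adhesion molecule, at 514 CPM (read counts scaled to a common library size by the TMM method) against 10.5 to 31.8. Hepatocyte markers summed to 71750 to 134913 CPM in WT DMSO against 118543 to 145953 in KO CDDO-Me, and of the 16 tested none passed the edgeR test described next (2 had an unadjusted p under 0.05, and DESeq2 called 0). The part that these differences between libraries have in the results was not tested. Besides leaving out single libraries, 2 further fits are quoted for many, not all, of the lists and genes described below whose calls they change. One had a term for the ribosomal RNA set (share above or below 0.1%). Every KO library lay below 0.1%. The term was thus estimated only from WT DMSO 4 against WT DMSO 1 to 3 and WT CDDO-Me 1 against WT CDDO-Me 2 to 4. With it the comparison leans on WT DMSO 4, the library that stood apart in inflammatory genes. The other fit left out the 4 libraries richest in intronic reads (WT DMSO 1 and 2, KO untreated 1 and 2).

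Of 16206 genes tested, 369 (2.28%) passed an adjusted p of 0.05 in edgeR's quasi-likelihood test, which is what "called" means throughout. They comprised 149 genes higher in KO CDDO-Me (0.919%) and 220 lower (1.36%). Among the genes that fell were carboxylesterases, glutathione transferases and other NRF2-linked detoxification enzymes, and among those that rose were the secreted peptide Tff3, the serine protease Prtn3 and markers of Kupffer cells, the resident macrophages of the liver. The 2 groups did not overlap for 147 of the 149 higher and 193 of the 220 lower genes, while over all genes tested 7.07% lay wholly above and 5.72% wholly below. The number of calls was set strongly by single libraries: leaving out WT DMSO 1, 2, 3 or 4 gave 222, 91, 837 or 1381 calls, and leaving out KO CDDO-Me 1, 2, 3 or 4 gave 92, 71, 90 or 326. With every library left out in turn, 61 genes were called each time, 21 higher and 40 lower. In limma on the deposited FPKM with a pseudocount of 1, which changes the scaling and the test together, the split was 735 higher and 185 lower. With only these 8 libraries in the fit there were 58 calls, and DESeq2 gave 1538.

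**Figure D1:**
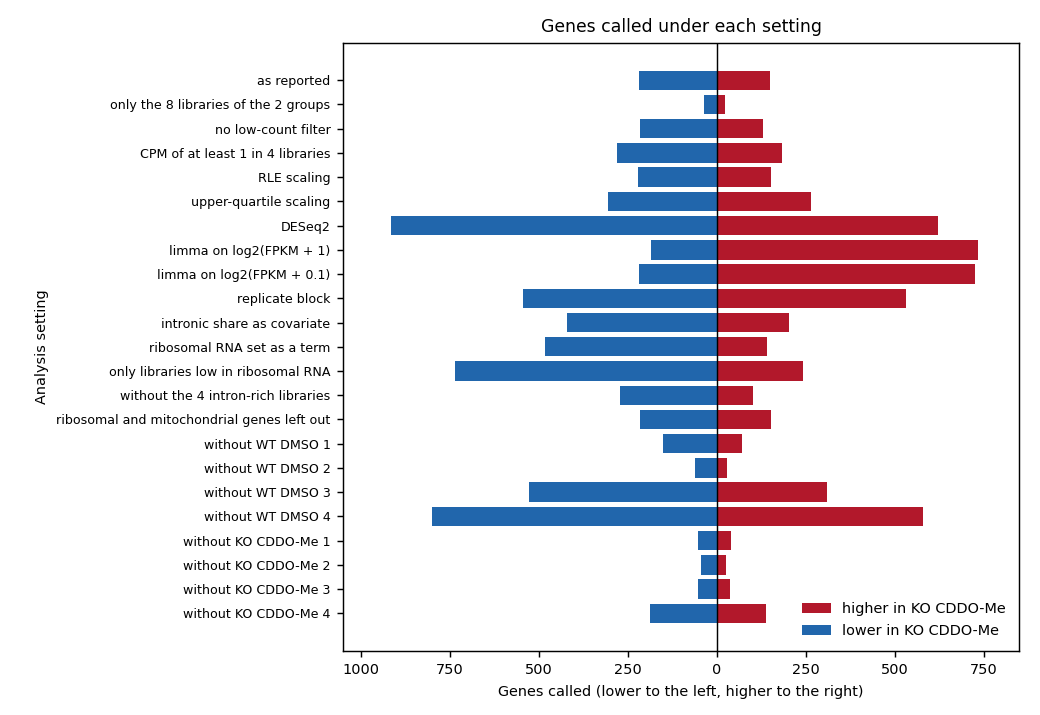
Number of genes called lower (left) and higher (right) in KO CDDO-Me against WT DMSO under the reported analysis and each of 22 alternatives, 1 bar pair each. The reported analysis called 149 higher and 220 lower, and the largest change from leaving out 1 library came without WT DMSO 4, at 580 and 801.

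Nfe2l2 itself, at chr2:75675513-75704641 (GRCm38), was measured first because it is the gene of the genotype label. It stood at 42.8, 66.2, 55.1 and 74.9 CPM in WT DMSO 1 to 4 and at 19.8, 15.7, 21.0 and 19.0 CPM in KO CDDO-Me 1 to 4. Every KO CDDO-Me library thus lay below every WT DMSO library, yet none was at 0. The log2 fold change, KO CDDO-Me over WT DMSO and called the log2 ratio from here on, was −1.66 ± 0.26 (SE throughout, edgeR adjusted p = 0.00373), and the gene was called in all 22 alternatives. KO untreated livers had 19.9 to 51.7 CPM and WT CDDO-Me livers 36.6 to 45.5 CPM, so these ranges overlapped. KO untreated 1 and 2, both rich in intronic reads, had 51.7 and 35.5 CPM. These counts alone therefore do not check the genotype label. The counts are summed over the whole gene, so the remaining reads do not show whether the deleted part was read. In whole liver, fewer cells of a type and less RNA per cell cannot be told apart, here or for any gene below.

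The core of antioxidant response elements was searched for in a loose form, TGANNNNGC. The promoters of 4 NRF2 target genes that fell and hold this loose core are shown because the elements that NRF2 binds fall within it. Not every match to it is such an element. The sequences are RefSeq's, build GRCm38.p6, from 250 bases before to 50 after an annotated start, on the strand of the gene. Capitals mark each match to the core on either strand.
Gsta1, chr9:78230419-78230718, plus strand: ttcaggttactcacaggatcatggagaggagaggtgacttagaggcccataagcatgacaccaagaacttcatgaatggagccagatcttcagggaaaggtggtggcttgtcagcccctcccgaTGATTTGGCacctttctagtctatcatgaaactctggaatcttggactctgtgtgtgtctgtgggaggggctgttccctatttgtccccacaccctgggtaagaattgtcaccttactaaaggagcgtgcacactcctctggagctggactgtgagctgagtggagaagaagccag
Gstm3, chr3:107969125-107969424, minus strand: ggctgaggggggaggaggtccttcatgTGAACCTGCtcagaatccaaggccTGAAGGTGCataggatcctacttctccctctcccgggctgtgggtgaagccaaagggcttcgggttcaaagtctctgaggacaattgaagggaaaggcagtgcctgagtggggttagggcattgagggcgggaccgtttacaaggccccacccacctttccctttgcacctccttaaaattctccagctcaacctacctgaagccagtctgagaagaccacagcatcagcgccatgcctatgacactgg
Me1, chr9:86695865-86696164, minus strand: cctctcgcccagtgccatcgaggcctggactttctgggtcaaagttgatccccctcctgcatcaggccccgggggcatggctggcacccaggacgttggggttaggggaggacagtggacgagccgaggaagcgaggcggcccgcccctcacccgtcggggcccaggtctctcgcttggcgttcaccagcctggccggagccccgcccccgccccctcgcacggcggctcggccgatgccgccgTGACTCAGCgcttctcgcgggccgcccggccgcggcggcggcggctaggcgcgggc
Htatip2, chr7:49758856-49759155, plus strand: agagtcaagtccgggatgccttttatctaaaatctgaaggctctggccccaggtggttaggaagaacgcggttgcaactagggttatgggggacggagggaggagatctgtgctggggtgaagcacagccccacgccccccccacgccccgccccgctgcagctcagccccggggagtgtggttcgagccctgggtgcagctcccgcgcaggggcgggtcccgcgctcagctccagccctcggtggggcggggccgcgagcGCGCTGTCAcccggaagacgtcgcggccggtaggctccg
In Gsta1 the match TGATTTGGC began 126 bases before the start. Gstm3 held TGAACCTGC at 223 and TGAAGGTGC at 199 bases before it, and Me1 held TGACTCAGC at 6 bases before it. The Htatip2 window held the reverse form GCGCTGTCA at 11 bases past the start, and a window at a later start of the same gene held TGACTCAGC at 49 bases before it. Of the 13 called NRF2 target genes, 12 had a promoter in the table, and 7 of them (58.3%) held the core. The same core lay in 47.7% of the tested genes with a promoter and in 41.3% of all 32851 windows in the table. The narrower core TGACNNNGC, which is contained in the first, lay in 3 of the 12 (25.0%) and in 16.8% of the tested genes. These letters are frequent by themselves, and a match describes the sequence only.

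Several NRF2 target genes were lower. Of 36 tested, 13 were called lower and 0 higher, against 1.36% of all genes called lower, and their median log2 ratio was −0.78, against −0.04 over all genes tested. In 21 of the 36 every KO CDDO-Me library lay below every WT DMSO library, against 5.72% of all genes tested. The number of lower calls in the list was 9 to 13 when any 1 of the 8 libraries was left out (9 without KO CDDO-Me 2), and 10 to 19 under the 4 settings that deal with ribosomal or intronic reads. These are counts, and the genes called differed between fits.

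Abcc3, a basolateral pump that exports glucuronides and bile acids into blood, stood at 267, 213, 372 and 262 CPM in WT DMSO 1 to 4 and at 33.1, 35.0, 40.7 and 52.9 CPM in KO CDDO-Me 1 to 4. That is 6.89-fold lower in mean CPM, with a log2 ratio of −2.78 ± 0.24 (edgeR adjusted p = 7.36e-06). The groups were far apart, the highest null library being well under the lowest wild-type one. Gstm1, a mu-class glutathione transferase, was at 675, 508, 879 and 598 CPM in WT DMSO against 109.5, 114, 120.5 and 117 in KO CDDO-Me. The null livers given the drug were nearly alike in this gene (115 ± 4.62 CPM, SD, n = 4), and the log2 ratio was −2.53 ± 0.29 (edgeR adjusted p = 0.000215). Aox1, an aldehyde oxidase, read 280.2, 250.5, 208 and 116 CPM in WT DMSO against 36.3, 41.8, 41.8 and 41.6 in KO CDDO-Me. Its log2 ratio was −2.40 ± 0.28 (edgeR adjusted p = 0.000226).

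Gsta1 and Gsta2 encode alpha-class glutathione transferases and are near-identical to each other, so the split of reads between them is uncertain. Gsta2 was at 9.21, 9.02, 16.3 and 9.05 CPM in WT DMSO against 1.21, 1.24, 0.669 and 1.55 in KO CDDO-Me (log2 ratio −3.22 ± 0.33, edgeR adjusted p = 7.25e-05). Gsta1 was low in both groups, at 3.00 to 4.37 and 0.223 to 0.378 CPM, and had the larger log2 ratio, −3.58 ± 0.44 (edgeR adjusted p = 0.000422). Gstm3, another mu-class enzyme, had 32.1, 40.3, 57.4 and 29.6 CPM in WT DMSO against 4.37, 6.75, 4.87 and 3.85 CPM in KO CDDO-Me (log2 ratio −3.01 ± 0.39, edgeR adjusted p = 0.000684). Ephx1, the microsomal epoxide hydrolase, had 205 to 484 CPM against 67.2 to 106 CPM (log2 ratio −1.97 ± 0.29, edgeR adjusted p = 0.00258). These 4 and Abcc3, Gstm1 and Aox1 were called in all 22 alternatives.

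Me1, the cytosolic malic enzyme that supplies NADPH, read 247, 309, 310.2 and 192 CPM in WT DMSO against 64.9, 71.4, 138 and 99.3 in KO CDDO-Me (log2 ratio −1.50 ± 0.25, edgeR adjusted p = 0.00663). Nqo1, the quinone reductase that is the usual marker of NRF2 activity, had 3.21, 3.75, 4.22 and 4.04 CPM in WT DMSO against 1.98, 0.766, 1.56 and 0.825 in KO CDDO-Me (log2 ratio −1.56 ± 0.30, edgeR adjusted p = 0.019). The groups did not overlap, but without KO CDDO-Me 2 the adjusted p of Nqo1 was 0.0763. Htatip2, a short-chain oxidoreductase-like protein, fell by 1.12 on the log2 scale (SE 0.20, edgeR adjusted p = 0.0117), from 20.6 to 31.0 CPM in WT DMSO to 10.6 to 15.7 CPM in KO CDDO-Me. The last 3 of the 13 had smaller margins. Osgin1 had a log2 ratio of −1.29, Blvrb, biliverdin reductase B, −0.79 and Ugdh, which makes UDP-glucuronate, −0.77 (edgeR adjusted p = 0.0353, 0.0485 and 0.0228). Osgin1 was not called without WT DMSO 1 or 2 or KO CDDO-Me 1, 2 or 3 (adjusted p 0.0729 to 0.121). Blvrb was not called without WT DMSO 1 or 3 or any 1 of the KO CDDO-Me libraries (0.0619 to 0.134), nor Ugdh without any 1 of the latter (0.0525 to 0.0748). With the ribosomal term the adjusted p was 0.0532 for Htatip2, 0.0702 for Ugdh and 0.0972 for Blvrb, and without the intron-rich libraries it was 0.111 for Osgin1. Osgin1 and Htatip2 were named after their values were seen.

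The best-known targets of the pathway were not uniformly lower. Gclc, the catalytic subunit of glutamate-cysteine ligase, was at 288, 218, 271 and 277 CPM in WT DMSO against 153, 194, 259 and 199 in KO CDDO-Me (log2 ratio −0.39 ± 0.19, edgeR adjusted p = 0.215). Gclm, its regulatory subunit, was at 102, 87.7, 211 and 183 CPM in WT DMSO against 218, 228, 213 and 172 in KO CDDO-Me (log2 ratio 0.51 ± 0.27, edgeR adjusted p = 0.242). The ranges overlapped for both subunits. Txnrd1, thioredoxin reductase, had log2 ratio −0.28 ± 0.22 (edgeR adjusted p = 0.42) and Srxn1, sulfiredoxin, −0.11 ± 0.25 (edgeR adjusted p = 0.792). Both ratios turned positive without WT DMSO 4, to 0.046 and 0.083, and neither was called. Hmox1, heme oxygenase, was at 20.5, 34.1, 47.2 and 294 CPM in WT DMSO against 25.4, 28.5, 24.1 and 51.2 in KO CDDO-Me. Its log2 ratio of −1.62 ± 0.65 (edgeR adjusted p = 0.14) became −0.07 without WT DMSO 4 (adjusted p = 0.915).

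Levels in the other groups are set beside these without a test, as the comparisons share libraries. In WT CDDO-Me, Gstm1 was at 4194 to 5539 CPM, Gclc at 925 to 1355 CPM and Nqo1 at 30.7 to 45.9 CPM, all above both groups compared. KO untreated livers had Gstm1 at 75.1 to 204 CPM, Abcc3 at 30.2 to 55.9 CPM and Aox1 at 28.1 to 65.9 CPM, ranges that contain those of KO CDDO-Me. Nqo1 was at 0.434 to 1.19 CPM in KO untreated, a range that overlaps that of KO CDDO-Me.

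**Figure D2:**
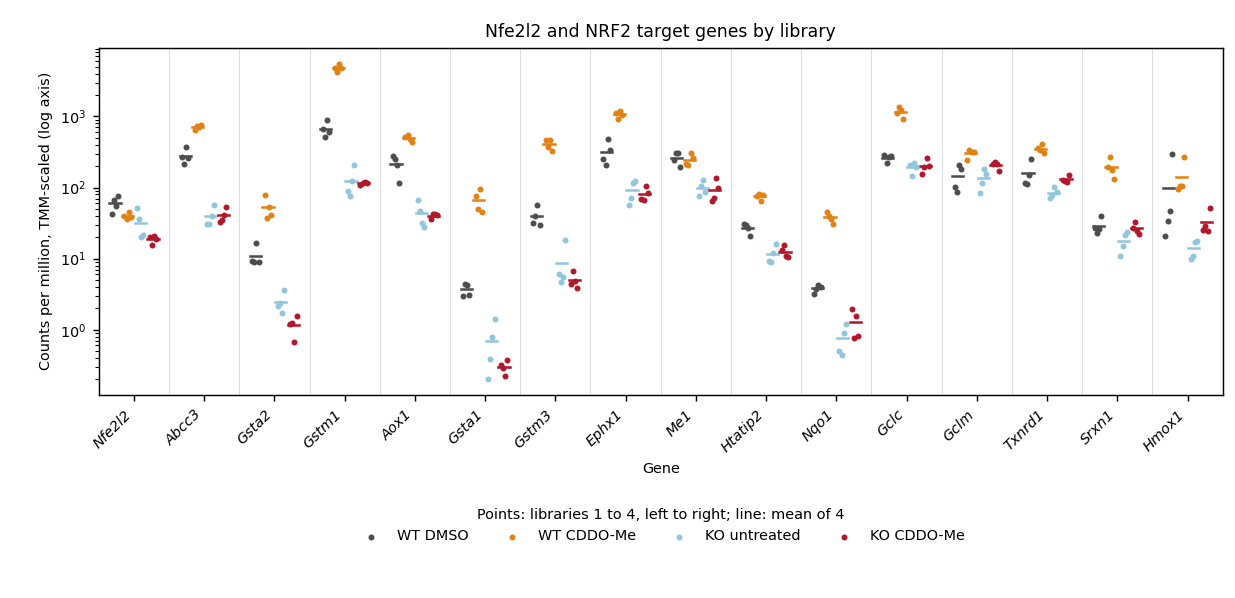
TMM-scaled CPM, on a log axis, of Nfe2l2 and 15 NRF2 target genes in each library of the 4 groups, with the mean of 4 as a line. KO CDDO-Me points lie below WT DMSO points from Nfe2l2 to Nqo1, for example 33.1 to 52.9 against 213 to 372 CPM for Abcc3, and overlap them from Gclc to Hmox1.

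Glutathione genes beyond the NRF2 list added 1 call. Of 32 tested in the list of glutathione synthesis and transfer, 5 were called lower and 0 higher, against 1.36% and 0.919% of all genes. The median log2 ratio was −0.21. The fifth, after Gsta1, Gsta2, Gstm1 and Gstm3, was Gstm4 (log2 ratio −1.21 ± 0.29, edgeR adjusted p = 0.0393). It was at 29.2 to 46.0 CPM in WT DMSO against 11.7 to 20.0 in KO CDDO-Me, and it was called without WT DMSO 4 but not without any 1 of the other 7 libraries (adjusted p 0.0503 to 0.121) or with the ribosomal term (0.0886). The list had 8 lower calls without the intron-rich libraries. In the list of pentose phosphate and NADPH supply, Me2, a mitochondrial malic enzyme, was higher while Me1 was lower. Me2 was at 2.02 to 2.57 CPM in WT DMSO against 3.92 to 5.79 in KO CDDO-Me (log2 ratio 1.11 ± 0.19, edgeR adjusted p = 0.00791). Whether it supplies NADPH here was not tested. Of the 17 tested regulators and partners of NRF2, 2 were called lower and 0 higher, against 1.36% and 0.919% of all genes. They were Nfe2l2 and Bach2, a repressor related to BACH1, which fell by 1.25 on the log2 scale (SE 0.25, edgeR adjusted p = 0.0195). With the ribosomal term 3 of the 17 were called lower. Bach2 was not called without KO CDDO-Me 1 (adjusted p = 0.0749) or KO CDDO-Me 2 (0.0865).

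Carboxylesterases, which hydrolyse ester drugs and lipids in the endoplasmic reticulum, held some of the largest falls. Of 20 carboxylesterases and other hydrolases tested, 6 were called lower and 0 higher, against 1.36% of all genes called lower. The median log2 ratio was −0.83 and 18 of the 20 were negative, as were 8631 of all 16206 genes. Ces1b read 66.5, 73.8, 80.6 and 54.6 CPM in WT DMSO against 5.02, 8.23, 3.70 and 3.09 in KO CDDO-Me, 13.8-fold lower in mean CPM (log2 ratio −3.79 ± 0.32, edgeR adjusted p = 7.36e-06). Ces1g read 139, 104, 215 and 199 CPM in WT DMSO against 2.87, 3.64, 17.4 and 19.5 in KO CDDO-Me (log2 ratio −3.91 ± 0.53, edgeR adjusted p = 0.00108). Within KO CDDO-Me, libraries 1 and 2 had the lowest Ces1g, and the same pair had the lowest Ces1f, at 23.3 and 14.9 CPM against 60.6 and 62.1 CPM in libraries 3 and 4. Ces1f was at 166 to 378 CPM in WT DMSO (log2 ratio −2.68 ± 0.40, edgeR adjusted p = 0.0029). Ces2c fell from 29.0 to 139 CPM in WT DMSO to 1.17 to 8.86 CPM in KO CDDO-Me (log2 ratio −3.68 ± 0.67, edgeR adjusted p = 0.0135), a call lost without KO CDDO-Me 2 (adjusted p = 0.0578). The remaining called members were Ephx1, described above, and Ces1a, which was at most 0.416 CPM in the 8 libraries (edgeR adjusted p = 0.0338) and was not called without WT DMSO 1 or 2 or any 1 of the KO CDDO-Me libraries (0.0567 to 0.107), nor without the intron-rich libraries (0.0874). The Ces1 genes lie side by side as near-identical copies on chromosome 8, so reads may have been assigned to the wrong copy. KO untreated livers had Ces1b at 4.20 to 11.4 CPM and Ces1g at 14.2 to 31.5 CPM, and WT CDDO-Me livers had Ces1b at 134 to 168 CPM. The list had 4 to 6 lower calls when any 1 library was left out, the fewest without KO CDDO-Me 2. It had 7 without the intron-rich libraries.

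Cytochrome P450 enzymes oxidise drugs and steroids. Among 37 of their genes 4 were called lower and 1 higher, against 1.36% and 0.919% of all genes, and 30 of the 37 were negative (median log2 ratio −0.66). Leaving out WT DMSO 2, 3 or 4 gave 1, 2 or 7 lower calls, and leaving out KO CDDO-Me 1, 2 or 3 gave 2, 1 or 1. With the ribosomal term 1 was called lower, and without the intron-rich libraries 6 were. Cyp2d22 had the tightest groups, 178, 174, 197 and 173 CPM in WT DMSO against 88.9, 92.7, 98.0 and 100.2 CPM in KO CDDO-Me (log2 ratio −0.93 ± 0.11, edgeR adjusted p = 0.000477). It was the only one of the 5 called in all 22 alternatives, and it was at 139 to 164 CPM in KO untreated livers, with 134 to 159 in WT CDDO-Me, both above KO CDDO-Me. Cyp2a5, the coumarin hydroxylase, read 143, 301, 430.4 and 141 CPM in WT DMSO against 9.23, 14.9, 45.4 and 74.4 in KO CDDO-Me (log2 ratio −2.82 ± 0.56, edgeR adjusted p = 0.0208). The call was lost without WT DMSO 2 (adjusted p = 0.0539), KO CDDO-Me 2 (0.0808) or KO CDDO-Me 3 (0.0604). Cyp2a4, a near-identical neighbour, had 0.735 to 3.55 CPM against 0.0956 to 0.344 CPM (log2 ratio −3.42 ± 0.79, edgeR adjusted p = 0.0362) and was not called without WT DMSO 2 or 3 or KO CDDO-Me 1, 2 or 3 (0.0545 to 0.117). The fourth, Cyp3a59, had a log2 ratio of −0.82 (edgeR adjusted p = 0.0402) and was not called without WT DMSO 1, 2 or 3 or KO CDDO-Me 1, 2 or 3 (0.0595 to 0.129). Cyp2u1 was the one that rose, from 22.7 to 52.3 CPM in WT DMSO to 66.3 to 92.2 CPM in KO CDDO-Me (log2 ratio 1.08 ± 0.21, edgeR adjusted p = 0.0195, and 0.0647 without KO CDDO-Me 3). With the ribosomal term the adjusted p was 0.0739 for Cyp2a5, 0.0762 for Cyp2a4, 0.102 for Cyp3a59 and 0.0577 for Cyp2u1. Without the intron-rich libraries it was 0.0664 for Cyp3a59 and 0.0568 for Cyp2u1.

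Of 27 glucuronidation and sulfation genes, 4 were called lower and 0 higher, against 1.36% of all genes called lower (median log2 ratio −0.43). In the list 6 and 7 were called lower without WT DMSO 1 and 4 but 1, 1, 2 and 2 without KO CDDO-Me 1, 2, 3 and 4, with 3 under the ribosomal term and 6 without the intron-rich libraries. Ugt1a6b, a glucuronosyltransferase for phenols, was at 41.7, 52.5, 57.1 and 48.2 CPM in WT DMSO against 18.9, 22.3, 24.9 and 24.1 in KO CDDO-Me (log2 ratio −1.15 ± 0.15, edgeR adjusted p = 0.000639). Ugt1a genes share their last exons, so Ugt1a6b and Ugt1a9 (log2 ratio −1.21 ± 0.29, edgeR adjusted p = 0.0427) could not be counted apart with certainty. Ugt1a9 was called without WT DMSO 1 or 4 but not without any 1 of the other 6 libraries (adjusted p 0.0585 to 0.13). Ugt2b35 fell by 1.27 on the log2 scale (SE 0.26, edgeR adjusted p = 0.0209), from 135 to 285 CPM in WT DMSO to 74.0 to 97.5 CPM in KO CDDO-Me. Its adjusted p was 0.0737 without KO CDDO-Me 1 and 0.0893 without KO CDDO-Me 2. The fourth was Ugdh.

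Nr1i3 encodes CAR, the nuclear receptor that switches on Cyp2b and Cyp2c genes. It was at 145, 271, 145 and 27.6 CPM in WT DMSO against 8.13, 15.6, 21.2 and 28.9 in KO CDDO-Me (log2 ratio −2.99 ± 0.55, edgeR adjusted p = 0.0138). WT DMSO 4 lay inside the range of KO CDDO-Me, and with a term for the ribosomal RNA set of the libraries the log2 ratio was −1.79 (adjusted p = 0.15). It was also lost without KO CDDO-Me 1 (0.0515) or KO CDDO-Me 2 (0.0669). Esr1, the estrogen receptor alpha, was higher, at 33.7 to 40.9 CPM in WT DMSO against 115, 120.2, 75.5 and 53.2 in KO CDDO-Me (log2 ratio 1.30 ± 0.24, edgeR adjusted p = 0.015, and 0.0513 and 0.0664 without KO CDDO-Me 1 and 2).

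**Figure D3:**
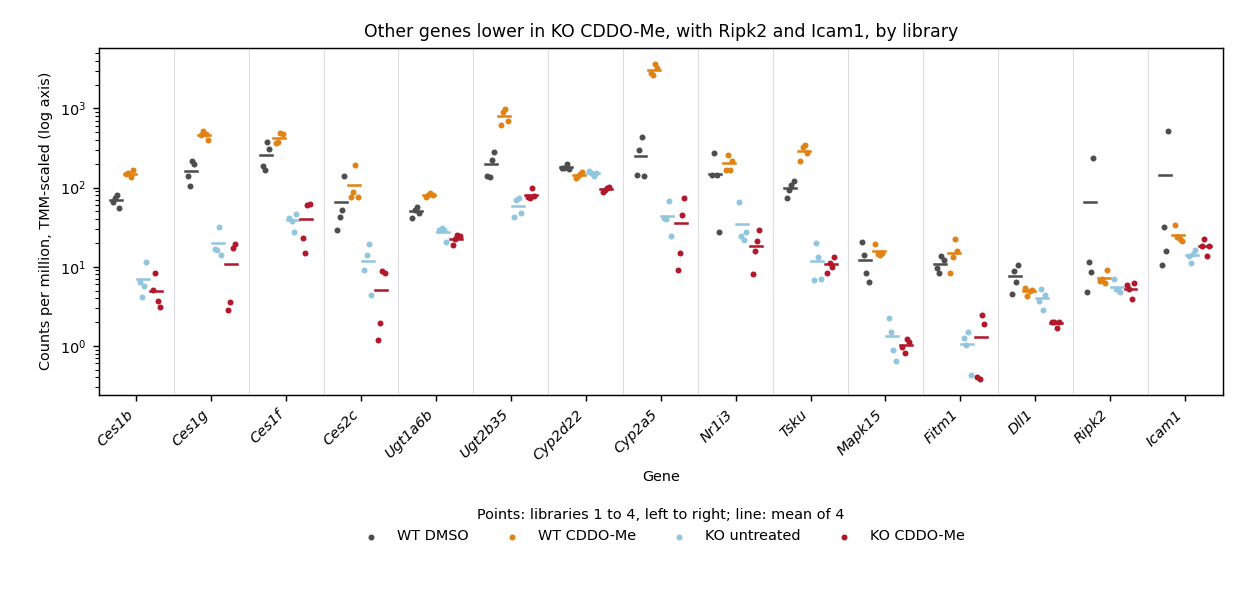
TMM-scaled CPM, on a log axis, of 14 genes called lower, and of Icam1, which was not called, in each library of the 4 groups, with the mean of 4 as a line. Ces1b lies at 3.09 to 8.23 CPM in KO CDDO-Me against 54.6 to 80.6 CPM in WT DMSO, and the Ripk2 mean of WT DMSO rests on 1 library at 239.5 CPM.

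Outside the detoxification lists, Tsku, a secreted leucine-rich protein called tsukushi, had among the clearest falls. It read 73.1, 92.8, 107 and 121 CPM in WT DMSO against 8.26, 11.1, 10.04 and 13.3 in KO CDDO-Me, 9.23-fold lower in mean CPM (log2 ratio −3.21 ± 0.31, edgeR adjusted p = 4.32e-05). KO untreated livers had 6.86 to 19.7 CPM and WT CDDO-Me livers 218 to 346 CPM. Mapk15, an atypical MAP kinase, read 20.7, 14.01, 8.30 and 6.38 CPM in WT DMSO against 0.971, 0.814, 1.21 and 1.13 in KO CDDO-Me (log2 ratio −3.56 ± 0.39, edgeR adjusted p = 0.000142). Dll1, a ligand of Notch, was at 4.57 to 10.6 CPM in WT DMSO against 2.02, 2.01, 1.69 and 2.03 in KO CDDO-Me (log2 ratio −1.97 ± 0.25, edgeR adjusted p = 0.000684). Tsku, Mapk15 and Dll1 were called in all 22 alternatives. Fitm1, a protein of lipid droplet formation, fell from 8.40 to 13.5 CPM in WT DMSO to 0.383 to 2.48 CPM in KO CDDO-Me (log2 ratio −3.04 ± 0.51, edgeR adjusted p = 0.00683).

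The rest of the 12 largest falls among annotated genes with a mean of at least 1 CPM were genes of low or uneven counts. Pou3f4, a POU-domain transcription factor, had 1.98, 0.971, 1.54 and 0.0459 CPM in WT DMSO and no read in any KO CDDO-Me library, which is at least 40.1-fold lower when a floor of 3 counts over the group is used. Its adjusted p was 0.0197 in edgeR and 0.0532, 0.0599 and 0.0604 without KO CDDO-Me 1, 2 and 3. Vtcn1, an inhibitory ligand for T cells, overlapped between groups (0.201 to 1.98 and 0 to 0.206 CPM, edgeR adjusted p = 0.0209) and was not called without WT DMSO 1 or 2 or KO CDDO-Me 1, 2 or 3 (0.0503 to 0.0767). Ptges, a prostaglandin E synthase, was at 0.694 to 3.58 CPM in WT DMSO against 0.0405 to 0.319 in KO CDDO-Me (edgeR adjusted p = 0.0287). It was not called without WT DMSO 1 or any 1 of the KO CDDO-Me libraries (0.0525 to 0.0973). Ripk2, an adaptor kinase of NOD receptors, was at 4.78, 11.5, 8.50 and 239.5 CPM in WT DMSO against 3.92 to 6.19 in KO CDDO-Me. Its log2 ratio of −3.65 (edgeR adjusted p = 0.0488) became −0.64 without WT DMSO 4 (adjusted p = 0.104), and the call was also lost without WT DMSO 2 or any 1 of the KO CDDO-Me libraries (0.0562 to 0.14). Without the intron-rich libraries the adjusted p was 0.081 for Pou3f4 and 0.131 for Vtcn1. Of the 220 genes called lower, 8 had a highest WT DMSO library at 3 or more times the next, 4 of them in WT DMSO 2 and 4 in WT DMSO 4.

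Several of the genes that rose most varied widely within KO CDDO-Me. Tff3, a trefoil peptide of mucosal surfaces, had the largest rise, at 4.98, 2.15, 1.74 and 11.8 CPM in WT DMSO against 209, 369, 56.8 and 12.8 in KO CDDO-Me (log2 ratio 4.94 ± 1.21, edgeR adjusted p = 0.0445). The lowest KO CDDO-Me library was only just above the highest WT DMSO library. The call was lost without WT DMSO 1, 2 or 3 or KO CDDO-Me 1, 2 or 3 (adjusted p 0.0565 to 0.129), and KO untreated livers spanned 15.8 to 254 CPM. Orm2, the acute-phase protein orosomucoid, read 46.6, 16.5, 19.2 and 109.7 CPM in WT DMSO against 484, 510.5, 223 and 92.9 in KO CDDO-Me (log2 ratio 2.77 ± 0.69, edgeR adjusted p = 0.0474), so the groups overlapped. It was not called without the same 6 libraries (0.0581 to 0.133). Mmd2, a membrane protein of the progestin and adiponectin receptor family, was at 2.16 to 3.26 CPM in WT DMSO against 42.3, 43.8, 6.21 and 4.37 in KO CDDO-Me (log2 ratio 3.18 ± 0.70, edgeR adjusted p = 0.0301). Slc3a1, a subunit of a cystine transporter, was at 68.1 to 126 CPM in WT DMSO against 562, 629, 221 and 156 in KO CDDO-Me (log2 ratio 1.95 ± 0.43, edgeR adjusted p = 0.0301). Mmd2 and Slc3a1 were not called without WT DMSO 1 or 2 or KO CDDO-Me 1 or 2 (0.0554 to 0.105). None of the 4 was called with the ribosomal term (adjusted p 0.109 to 0.199) or without the intron-rich libraries (0.0977 to 0.146). In Orm2, Mmd2 and Slc3a1, KO CDDO-Me 1 and 2 were each above KO CDDO-Me 3 and 4.

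Prtn3, proteinase 3, read 1.71, 0.624, 2.14 and 1.10 CPM in WT DMSO against 17.6, 26.4, 6.21 and 5.64 in KO CDDO-Me (log2 ratio 3.32 ± 0.60, edgeR adjusted p = 0.013). It was called with every library left out in turn, but without the intron-rich libraries its adjusted p was 0.0629. KO untreated livers had 0.203 to 0.852 CPM, below every KO CDDO-Me library. Prtn3 is a granule protease of neutrophils and their precursors, and 4 other granule genes were near 0 in KO CDDO-Me, with Elane at 0.0319 to 0.144 CPM, Mpo at 0.0319 to 0.138 CPM, and Ctsg and Camp at 0 in all 4 libraries. Of the 18 neutrophil and monocyte markers 10 could be tested and 1, Prtn3, was called higher, against 0.919% of all genes. The list otherwise leaned the other way, with 7 of the 10 negative and a median log2 ratio of −0.48. Without WT DMSO 4, 7 were positive and the median was 0.74. With the ribosomal term 1 was called higher and 3 lower, and without the intron-rich libraries 0 higher and 1 lower. The list summed to 37.3 to 1361 CPM in WT DMSO against 156 to 728 in KO CDDO-Me, most of it Lcn2, a secreted siderophore-binding protein, at 174, 86.2, 29.8 and 1310 CPM against 615, 692, 145 and 140. The part of these cells in the Prtn3 result was not tested.

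Isyna1, the rate-limiting enzyme of inositol synthesis, was at 14.4, 20.3, 11.3 and 13.1 CPM in WT DMSO against 74.5, 127, 39.3 and 32.9 in KO CDDO-Me (log2 ratio 2.21 ± 0.41, edgeR adjusted p = 0.0138). KO untreated livers had 4.52 to 6.84 CPM and WT CDDO-Me livers 22.1 to 70.1 CPM. Cytip, a cytohesin-binding protein of immune cells, was at 0.887 to 1.70 CPM in WT DMSO against 3.60, 6.03, 6.56 and 5.54 in KO CDDO-Me (log2 ratio 1.98 ± 0.27, edgeR adjusted p = 0.00128), and it was at 1.37 to 1.74 CPM in KO untreated. Grm8, a metabotropic glutamate receptor, was at 0.486 to 1.74 CPM in WT DMSO against 9.15, 8.90, 4.65 and 5.60 in KO CDDO-Me (log2 ratio 2.51 ± 0.45, edgeR adjusted p = 0.0113). Aph1b, a subunit of gamma-secretase with a near-identical copy, Aph1c, was at 1.67 to 2.52 CPM in WT DMSO against 5.47 to 10.4 in KO CDDO-Me (log2 ratio 2.00 ± 0.31, edgeR adjusted p = 0.00373). Gimd1 had 1.02 to 2.21 CPM in WT DMSO against 4.30 to 6.70 in KO CDDO-Me (log2 ratio 1.93 ± 0.29, edgeR adjusted p = 0.00341). The calls of Isyna1, Cytip, Grm8, Aph1b and Gimd1 held with every library left out in turn, and Grm8 had an adjusted p of 0.0619 with the ribosomal term. In Isyna1 and Grm8, as in Prtn3, KO CDDO-Me 1 and 2 were each above KO CDDO-Me 3 and 4. Leaving out 1 library of that pair kept the other.

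The last of the 12 largest rises were Atp4a, a subunit of the gastric proton pump, and Tuba8, a tubulin. Atp4a was at 0.416 to 1.29 CPM in WT DMSO against 1.75 to 7.45 in KO CDDO-Me (log2 ratio 2.28 ± 0.56, edgeR adjusted p = 0.046), and was not called without WT DMSO 1, 2 or 3 or KO CDDO-Me 1, 2 or 3 (0.0525 to 0.136). Tuba8 was at 1.00 to 1.38 CPM and 1.79 to 8.05 CPM (log2 ratio 2.07 ± 0.42, edgeR adjusted p = 0.0215), and was not called without WT DMSO 2 or KO CDDO-Me 1 or 2 (0.0639 to 0.0876). With the ribosomal term and without the intron-rich libraries the adjusted p was 0.328 and 0.164 for Atp4a and 0.0804 and 0.0896 for Tuba8. Where 2.28% of all genes were called, 1 of the 34 genes of the unfolded protein and ATF4 responses was called. It was Dnajc12, a co-chaperone of aromatic amino acid hydroxylases, at 5.73 to 14.7 CPM in WT DMSO against 47.6, 46.0, 19.0 and 16.2 in KO CDDO-Me (log2 ratio 1.73 ± 0.38, edgeR adjusted p = 0.0303). Dnajc12 was at 3.61 to 6.65 CPM in KO untreated livers, with 23.7 to 47.3 in WT CDDO-Me, and its call was lost without WT DMSO 1 or 2 or KO CDDO-Me 1 or 2 (0.065 to 0.103), as it was with the ribosomal term (0.0645) and without the intron-rich libraries (0.12).

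Some markers of Kupffer cells were higher. Of 18 tested, 5 were called higher and 0 lower, against 0.919% of all genes called higher, 16 were positive and the median log2 ratio was 0.64. Adgre1, which encodes F4/80, was at 19.1, 19.6, 14.5 and 14.1 CPM in WT DMSO against 33.8, 40.4, 42.4 and 46.9 in KO CDDO-Me (log2 ratio 1.28 ± 0.19, edgeR adjusted p = 0.00294). It was called in all 22 alternatives. Csf1r, the receptor for macrophage colony-stimulating factor, was at 53.3, 57.7, 49.0 and 37.7 CPM in WT DMSO against 75.3, 95.0, 91.1 and 103 in KO CDDO-Me (log2 ratio 0.88 ± 0.18, edgeR adjusted p = 0.0228). Vsig4, a complement receptor, had a log2 ratio of 1.21 ± 0.25, Timd4, a receptor for apoptotic cells, 1.12 ± 0.26 and Cd5l, a secreted scavenger protein, 1.02 ± 0.23 (edgeR adjusted p = 0.0248, 0.0347 and 0.032). The groups did not overlap for any of the 5. Their number fell to 3, 2, 1, 1 and 2 without WT DMSO 1, WT DMSO 2, KO CDDO-Me 2, KO CDDO-Me 3 and KO CDDO-Me 4, and was 7 without WT DMSO 4. With the ribosomal term 6 of the list were called higher and 1 lower, and without the intron-rich libraries 6 higher and 0 lower. Timd4 had an adjusted p of 0.0746 without the intron-rich libraries. The summed level of the 18 genes was 527 to 601 CPM in WT DMSO against 685 to 957 in KO CDDO-Me. It was 471 to 799 CPM in KO untreated livers, with 828 to 1105 in WT CDDO-Me. Of the other 13, Cd14, a co-receptor for endotoxin, had the lowest log2 ratio, −2.26 (edgeR adjusted p = 0.205), with 1.60 to 147 CPM in WT DMSO. Of all 18, 8 lay wholly above WT DMSO, the 5 called among them, against 7.07% of all genes tested. The rest overlapped between the groups, such as Marco at 10.1 to 15.6 CPM in KO CDDO-Me and 6.16 to 16.2 CPM in WT DMSO. Adamdec1, a macrophage-associated metalloprotease, was at 1.01 to 1.47 CPM in WT DMSO against 3.56 to 5.22 in KO CDDO-Me (log2 ratio 1.86 ± 0.27, edgeR adjusted p = 0.00188).

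Lymphocyte and major histocompatibility class II genes had the highest median of the lists, 1.15, over 9 tested. All were positive, and 1 gene was called higher, against 0.919% of all genes. That gene was Ighm, the heavy chain of immunoglobulin M, at 4.84, 4.23, 3.08 and 2.71 CPM in WT DMSO against 7.37, 6.80, 14.3 and 12.7 in KO CDDO-Me (log2 ratio 1.48 ± 0.28, edgeR adjusted p = 0.0184, 0.0618 without KO CDDO-Me 3 and 0.0541 with the ribosomal term). The class II genes H2-Aa, H2-Ab1 and H2-Eb1 had log2 ratios of 1.26, 1.24 and 1.197 with adjusted p of 0.053, 0.075 and 0.0532 in edgeR. Cd3e, a T cell receptor subunit, was low, at 0.138 to 0.574 CPM in KO CDDO-Me. The 20 genes of the list summed to 58.5 to 98.2 CPM in WT DMSO against 159 to 185 in KO CDDO-Me, without overlap. KO untreated livers had 55.2 to 151 CPM. Most of the sum was Cd74, H2-Aa, H2-Ab1 and H2-Eb1, with KO CDDO-Me means of 65.3, 35.5, 31.0 and 25.9 CPM, against 10.3 for Ighm. Cd3e, Cd4, Cd79b and Igkc overlapped between the groups, so the sum does not describe lymphocyte genes as such.

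**Figure D4:**
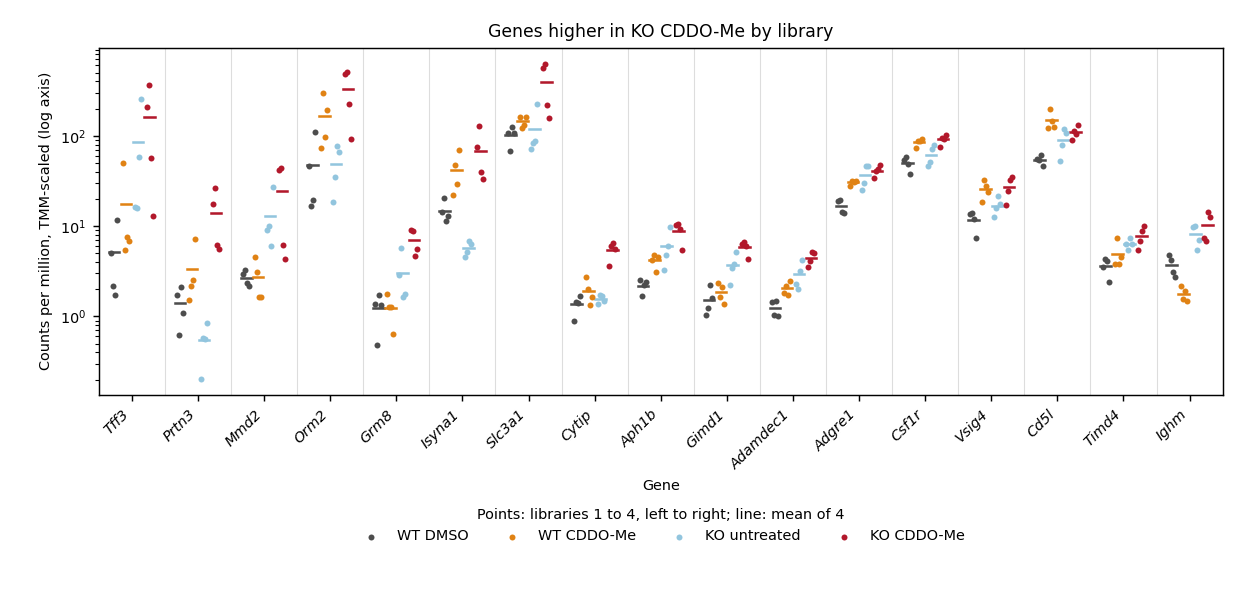
TMM-scaled CPM, on a log axis, of 17 genes called higher, in each library of the 4 groups, with the mean of 4 as a line. Tff3, Prtn3, Mmd2, Orm2, Isyna1 and Slc3a1 spread widely within KO CDDO-Me (12.8 to 369 CPM for Tff3), and Adgre1 lies at 33.8 to 46.9 CPM against 14.1 to 19.6 CPM in WT DMSO.

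Inflammatory lists changed with WT DMSO 4 left out and, the other way, with the ribosomal and intronic settings. Both of those settings give WT DMSO 4 more weight within its group. Of 36 interferon response genes 1 was called lower, Oasl2, against 1.36% of all genes. Of the 36, 35 were negative, with a median log2 ratio of −1.50. Without WT DMSO 4 edgeR called 0, 23 of the 36 were positive and the median was 0.21. The ribosomal term gave 20 lower calls (median −2.26), and leaving out the intron-rich libraries gave 12 (median −2.06). Oasl2, an antiviral oligoadenylate synthetase-like gene, was at 5.93, 4.93, 3.01 and 31.0 CPM in WT DMSO against 2.42 to 2.73 in KO CDDO-Me (log2 ratio −2.15 ± 0.54, edgeR adjusted p = 0.0479). Without WT DMSO 4 its log2 ratio was −0.85 (adjusted p = 0.0533), and the call was also lost without WT DMSO 2 or any 1 of the KO CDDO-Me libraries (0.0569 to 0.13). In the acute phase list of 33 genes, 1 was called higher, Orm2, and 1 lower, Il1r1, against 0.919% and 1.36% of all genes. The median was 0.12. Without WT DMSO 4, 12 were called higher and 1 lower and the median was 1.09. With the ribosomal term 0 were called higher and 3 lower (median −0.28), and without the intron-rich libraries 0 higher and 1 lower (median −0.36), so Orm2 was called in neither. Il1r1, the receptor of interleukin 1, was at 153, 318, 238 and 746 CPM in WT DMSO against 73.9, 88.1, 85.0 and 147 in KO CDDO-Me (log2 ratio −1.89 ± 0.40, edgeR adjusted p = 0.0246). The groups did not overlap, and the call was lost without WT DMSO 2 or KO CDDO-Me 1, 2 or 3 (0.0539 to 0.0952). Icam1 had a log2 ratio of −2.97 (adjusted p = 0.0744), which became −0.08 without WT DMSO 4 (0.862). Among 23 cytokines and chemokines none was called by edgeR (14 had an unadjusted p under 0.05, and DESeq2 called 1 higher and 3 lower), 8 were positive and the median was −0.48, and without WT DMSO 4 it was 0.36 with 2 called higher. Under the ribosomal term 10 of the 23 were called lower (median −0.93), and without the intron-rich libraries 5 were (median −0.76).

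Proliferation and most of metabolism held few or no calls. Of 35 cell cycle genes 24 were negative, with a median log2 ratio of −0.45, and 14 had an unadjusted p under 0.05 in edgeR. In 9 of them every KO CDDO-Me library lay below every WT DMSO library, against 5.72% of all genes. Of the 35, 2 were called lower and 0 higher, against 1.36% and 0.919% of all genes. They were Plk1, a mitotic kinase (log2 ratio −2.53 ± 0.49, edgeR adjusted p = 0.0194), and Mki67, the antigen Ki-67 (log2 ratio −1.30 ± 0.32, edgeR adjusted p = 0.0444). Neither was called without WT DMSO 2 or KO CDDO-Me 1, 2 or 3 (0.0606 to 0.136), while 8 genes of the list were called lower without WT DMSO 4 and 6 without WT DMSO 3. Without the intron-rich libraries neither was called (adjusted p 0.0629 and 0.0717), and with the ribosomal term Plk1 was not (0.0605). None of 25 cholesterol synthesis genes was called by edgeR (8 had an unadjusted p under 0.05), 23 were positive, against 46.7% of all genes, with a median log2 ratio of 0.57, and 6 lay wholly above WT DMSO, against 7.07% of all genes. Its genes with the lowest p were Sc5d, a late enzyme of the pathway, at 283 to 404 CPM in WT DMSO against 437 to 837 in KO CDDO-Me (adjusted p = 0.0873), and Insig1, a sterol sensor (adjusted p = 0.0915). In DESeq2 3 of the 25 were called higher, and in edgeR without the intron-rich libraries 1 was. Proteasome subunits (31 of 35 positive, median 0.27) and nuclear-encoded respiratory chain genes (34 of 38 positive, median 0.27) had no call in edgeR, with 0 and 3 at an unadjusted p under 0.05 and 0 and 1 called by DESeq2. Their medians were −0.08 and −0.08 without the 4 libraries richest in intronic reads, so their direction depended on those libraries. Of 15 mitochondrially encoded genes 1 was called lower and 0 higher, against 1.36% and 0.919% of all genes (median log2 ratio −0.72). Without the intron-rich libraries 6 of the 15 were called lower. edgeR called no gene in the lists of fatty acid oxidation (41 tested, 6 at an unadjusted p under 0.05), glucose metabolism (35 and 8), urea cycle and amino acids (41 and 9), one-carbon metabolism (25 and 7), immediate early genes (34 and 7), class I antigen presentation (18 and 3), heat shock (22 and 4) or circadian clock (19 and 5). DESeq2 called 1 to 5 genes in each of these 8 lists. With the ribosomal term 2 class I antigen presentation genes and 1 one-carbon gene were called lower. Without the intron-rich libraries 1 gene each was called lower in fatty acid oxidation, glucose metabolism and one-carbon metabolism. For stellate, endothelial, biliary and erythroid markers edgeR called none, 1 to 3 of each list had an unadjusted p under 0.05, and DESeq2 called 1 stellate marker.

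**Figure D5:**
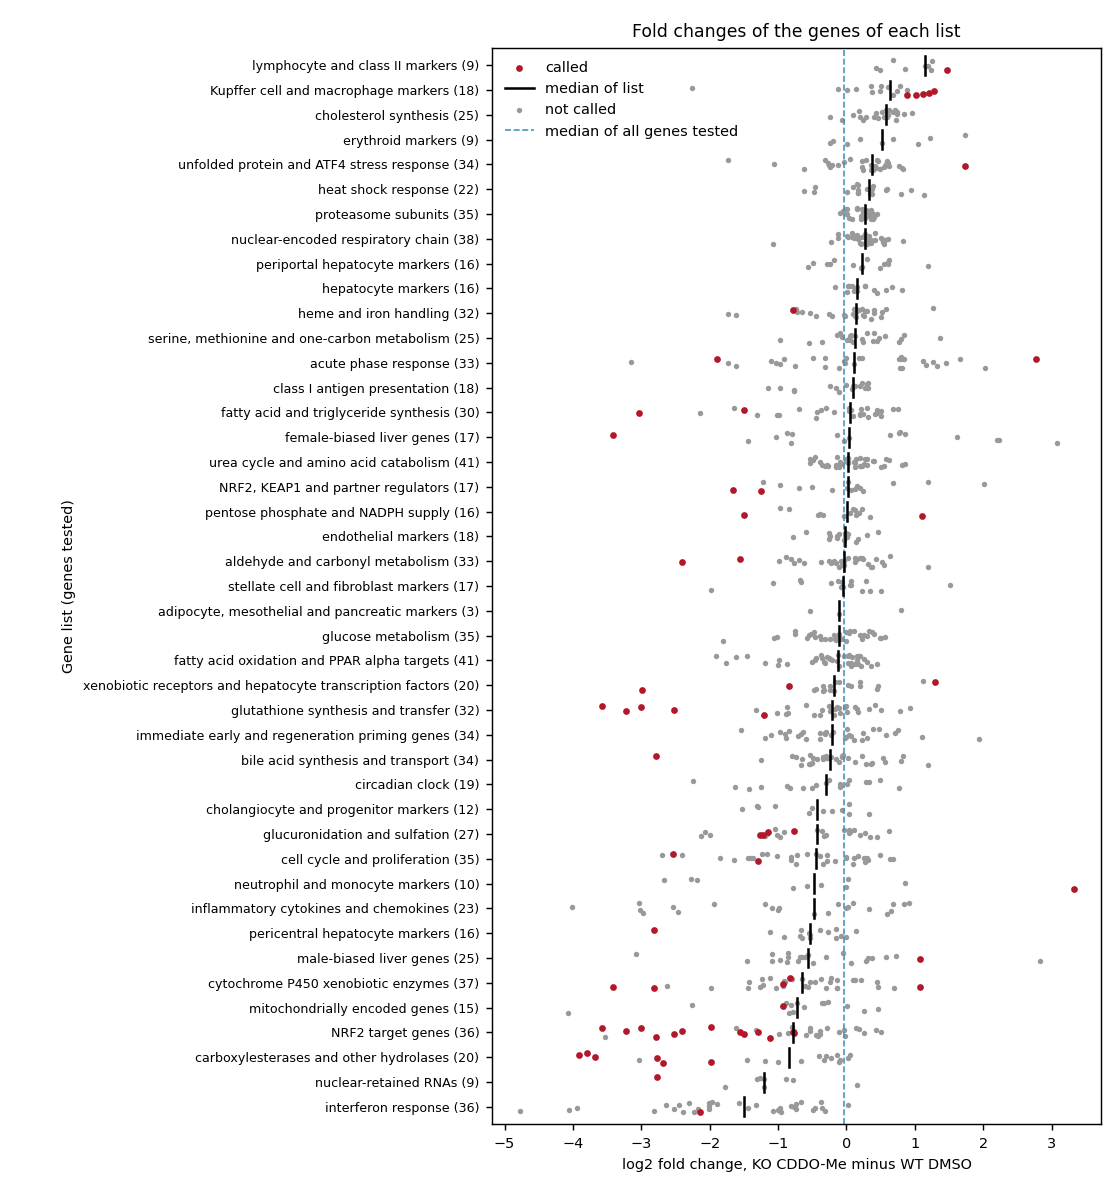
Log2 ratio, KO CDDO-Me minus WT DMSO, of each tested gene in the 43 gene lists, with called genes in red, list medians as black bars and the median of all genes tested (−0.04) as a dashed line. The 13 called NRF2 target genes lie to the left of the line and the 5 called Kupffer cell markers to the right.

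Gene class and position described the calls further. Protein-coding genes made up 145 of the 149 higher and 159 of the 220 lower calls, out of 13048 tested. TEC models had 18 lower and 0 higher calls of 980 tested, with a median log2 ratio of −0.84, and sense-intronic transcripts 4 lower and 0 higher of 152, with a median of −1.00. WT DMSO 1 and 2 were rich in these classes, as given above, and without the 4 libraries richest in them the calls were 102 higher and 273 lower. Within 20 Mb of Nfe2l2, the targeted locus, 6 of 205 tested genes (2.93%) were called, against 2.28% of all. Besides Nfe2l2 they were Cytip, Gm38377, Rapgef4, Itga4 and Gm4735, of which Cytip alone was called with every library left out in turn. Rapgef4, an exchange factor activated by cyclic AMP (chr2:71981240-72257474), was at 286 to 414 CPM in WT DMSO against 152 to 279.9 in KO CDDO-Me (log2 ratio −0.80 ± 0.19, edgeR adjusted p = 0.0407). Itga4, an integrin subunit (chr2:79255426-79333123), had a log2 ratio of 0.91 ± 0.23 (edgeR adjusted p = 0.0467). Without each of the libraries that ended its call, the adjusted p was 0.065 to 0.136 for Rapgef4 (WT DMSO 1 and 2 and KO CDDO-Me 1, 2 and 3), 0.0533 to 0.142 for Itga4 (all but WT DMSO 3 and 4), 0.106 to 0.116 for Gm38377 (WT DMSO 2 and KO CDDO-Me 1, 2 and 3) and 0.0516 to 0.136 for Gm4735 (all but WT DMSO 4). It was, with the ribosomal term, 0.0611 for Rapgef4, 0.119 for Itga4 and 0.0842 for Gm4735, and without the intron-rich libraries 0.0924 for Rapgef4, 0.0589 for Itga4 and 0.0514 for Gm38377.

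Windows of 20 Mb with 8 or more calls were found on 10 chromosomes. Each was the densest of its chromosome, so a share above the 2.28% of all genes called follows from the choice. The lowest share was on chromosome 3, where 9 of 323 (2.79%) were called. The highest share was on chromosome 9 (chr9:66775202-86695953), where 10 of 113 tested genes (8.85%) were called, among them Aph1b, Gsta1, Gsta2 and Me1. On chromosome 14 (chr14:53172727-69683286) 15 of 182 (8.24%) were called, 12 lower and 3 higher, including Fitm1 and Adamdec1. On chromosome 8 (chr8:90828352-107425051) 12 of 183 (6.56%) were called, 11 of them lower, including Ces1a, Ces1b, Ces1f, Ces1g, Ces2c and Nqo1. Several of these stretches hold gene families whose copies lie next to each other.

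Across all the settings tried, 29 genes were called every time, 6 higher and 23 lower. Among the 23 were Nfe2l2, Abcc3, Gsta1, Gsta2, Gstm1, Gstm3, Aox1, Ephx1, Ces1b, Ces1g, Ugt1a6b, Cyp2d22, Tsku, Mapk15 and Dll1, and among the 6 were Adgre1, Adamdec1 and Cytip. The sign of the fold change was the same under every alternative for 366 of the 369 called genes. Of the 68 called genes described here, 22 were not called with the ribosomal term, 20 without the intron-rich libraries, 10 with the intronic share as a covariate and 36 with only the libraries low in ribosomal RNA.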

How the data were processed

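RNA from 16 mouse livers, 4 per group, was depleted of ribosomal RNA and sequenced as directional paired reads, per the labels' protocols. The submitters' processing notes list, without roles, the build GRCm38.p5 and the tools HTSeq 0.6.1p1, TopHat2 2.1.0, DESeq2, cutadapt 1.2.1 and CASAVA 1.8.2. The authors deposited whole-number counts per gene, not normalized, and FPKM per gene, whose ratio to the counts over the library total was the same in every library (largest relative deviation 8.9e-07). The values as deposited carry no batch or date. The design text gives 4 animals per group, but the labels do not say that each library is a separate animal, so p-values measure the spread between libraries, which may be partly technical. Within each of the 2 groups compared, every pair of libraries differed beyond counting noise (lowest chi-square per degree of freedom 15.1, for KO CDDO-Me 1 against 2). KO CDDO-Me 3 against 4 gave 50.04, while 1 or 2 against 3 or 4 gave 99.98 to 114.5. The libraries of this group thus lay as 2 pairs. Leaving out 1 of them kept its closest partner in the fit.

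Counts were tested with edgeR 4.0.16 in R 4.3.3 (quasi-likelihood, TMM scaling, low counts removed by filterByExpr, Benjamini-Hochberg over 16206 genes). All 4 groups entered the fit and shared 1 estimate of spread (12 residual degrees of freedom). Signed values are KO CDDO-Me minus WT DMSO, and SE is the fold change over the root of the F statistic. Alternatives used DESeq2 1.42.0, limma 3.58.1 on log2(FPKM + 1) or log2(FPKM + 0.1), other scalings and filters, and each library left out. Further settings dealt with intronic and ribosomal reads. In simulated counts for this comparison (15979 genes tested) 56 of 100 genes changed 2-fold and 99 of 100 changed 4-fold were called, with 8 unchanged genes. Changes were put only into genes above a minimum mean CPM, and the libraries of a group shared their mean for each gene. The simulation held no library like WT DMSO 4 and no ribosomal or intronic sets. These shares therefore do not carry over to genes of low counts or to those differences between libraries. Of 33730 genes, 33629 were matched by ID to GENCODE M21 for names, classes and GRCm38 coordinates.

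The comparison, the alternatives and the 43 gene lists were chosen with earlier results of these data known. Genes were named by rule: Nfe2l2 and 6 standard NRF2 targets, the 12 largest called rises and falls of annotated genes with at least 1 CPM, up to 6 called genes of each list, or the 2 lowest p where none was called, called genes within 20 Mb of Nfe2l2, and those in 20 Mb windows with 8 or more calls. Not every gene so named is reported here.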

Additional observations from a re-analysis of the deposited data

Results flagged for a closer look

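In groups of 4 libraries, a library was singled out where its gap to the nearest other exceeded Dixon's critical share of the group's range. This held for 9 of the 152 group values of the genes described, and chance gives about 1 in 20. Of the 9, 4 were the highest value in WT DMSO 4.

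Icam1 in WT DMSO 4 was at 514 CPM where its group otherwise spanned 10.5 to 31.8. Hmox1 there was at 294 CPM against 20.5 to 47.2, Ripk2 at 239.5 CPM against 4.78 to 11.5, and Oasl2 at 31.0 CPM against 3.01 to 5.93. In WT DMSO 3, Gsta2 was at 16.3 CPM against 9.02 to 9.21 in the others. Within KO CDDO-Me, library 4 was highest for Hmox1, at 51.2 CPM against 24.1 to 28.5, and for Cyp2a4, at 0.344 CPM against 0.0956 to 0.121. Library 1 was lowest for Aox1, at 36.3 CPM against 41.6 to 41.8, and library 3 was lowest for Dll1, at 1.69 CPM against 2.01 to 2.03.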

How the results depend on the processing

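Against 369 calls (149 higher, 220 lower), the alternatives gave 58 with only the 8 libraries in the fit (23 higher, 35 lower), 573 with upper-quartile scaling (266 higher), 1538 with DESeq2 (622 and 916), 920 with limma on log2(FPKM + 1) (735 higher, 185 lower) and 944 on log2(FPKM + 0.1) (726 and 218). A covariate for the intronic share gave 624 (421 lower), a term for the ribosomal RNA set 622 (482 lower), and only libraries low in ribosomal RNA, where WT DMSO 4 stands alone for its group and is assumed to vary like the others, 977 (242 and 735). Leaving out 1 library gave 71 to 1381 calls, 26 to 580 higher and 45 to 801 lower. The other settings (no filter, a stricter filter, RLE scaling, intron-rich libraries left out, ribosomal and mitochondrial genes left out) gave 345 to 463. The cause was not tested.

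A replicate block gave 1077 calls (531 higher, 546 lower), but the labels name no block. Deviations of same-numbered libraries correlated at 0.0994, −0.0429, 0.288 and −0.0751, and those of differently numbered ones at −0.281 to 0.236. These few values cannot decide whether the numbers pair the samples. Of the 68 called genes among the 76 described, 18 were called under all alternatives, 28 without each library in turn, and all 68 kept their sign under all alternatives. Without 1 library the log2 ratio of Txnrd1, not called, ran from −0.41 to 0.046 and that of Srxn1, not called, from −0.22 to 0.083, each positive without WT DMSO 4. Depth limits genes near 1 CPM, where a library of 12002317 counts holds few reads.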
